A study of Mus musculus with 9 samples.

Results

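Retinoic acid is the hormone made from vitamin A, and the 9 genes described here make it, carry its precursor or break it down. They were chosen by symbol from the deposited table of counts: Rbp4, Adh1, Adh7, Aldh1a1, Aldh1a2, Aldh1a3, Aldh1a7, Cyp26a1 and Cyp26b1, which are 9 of the 55401 genes in that table. All 9 passed the filter on low counts, as did 15717 genes in all.

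The livers came from female mice that the labels list as wild type. In the HCC groups, hydrodynamic tail vein injection at an age of 6 weeks carried sleeping beauty transposon plasmids for activated AKT and NRAS (RAS/AKT) into hepatocytes. The AKT plasmid uses an EF1α promoter and the NRAS plasmid a CAG promoter. The deposited protocol also lists a β-catenin plasmid, but the samples used here are described as RAS/AKT. At 1 week after the oncogenes, the miR-22-treated HCC group (n = 3) was given miR-22 in an AAV8 vector and the untreated HCC group (n = 3) an empty AAV8. Their livers were collected 5 weeks after the oncogenes. Healthy livers (n = 3) received no treatment, neither oncogenes nor virus, and their age is not given in the labels. On strain the labels disagree, with C57BL/6 as the sample's strain and FVB/N in the protocol, and the methods name FVB/N.

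RNA of whole liver was sequenced in libraries that do not keep strand, with 16664659 to 23908392 counts per library. Levels are given as CPM, the counts scaled to library size with the TMM factor of each library, and errors are SD over 3 livers. The labels do not say beyond the replicate numbers that the 3 livers of a group were handled apart, so p-values measure the spread between these samples. In whole liver, fewer cells of a type and less RNA per cell cannot be told apart. Hepatocyte markers (6 of 7 found in the table) summed to between 124500 and 130900 CPM (healthy), between 55690 and 68790 (untreated HCC) and between 81080 and 97880 (miR-22-treated HCC), so all livers expressed the markers of their labelled tissue. The library labelled miR-22-treated HCC replicate 2 stood apart in its pancreatic acinar markers, which summed to 300.1 CPM there against 20.6 in the lowest library of its group and 19.3 to 44.8 in the other 2 groups.

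Retinol leaves the liver bound to RBP4 in blood. Inside cells, alcohol dehydrogenases such as ADH1 and ADH7, together with retinol dehydrogenases, oxidize retinol to retinal. Retinal dehydrogenases of the ALDH1A family then oxidize retinal to retinoic acid, which binds the nuclear receptors RAR and RXR. CYP26A1 and CYP26B1 hydroxylate retinoic acid and so remove it, and Cyp26a1 is a textbook target of retinoic acid receptors. In liver, hepatocytes secrete RBP4, and hepatic stellate cells store most of the vitamin A as retinyl esters.

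Receptor pairs of RAR and RXR bind repeats of a short unit, so the promoters of the 9 genes were searched for them. The search took 2 units in the same direction, with 5 bases between them, on both strands. A unit was AGGTCA, or its variant AGTTCA, or the same with G as its first base, which gives GGGTCA in the first case and GGTTCA in the other. RefSeq promoter windows (mouse build GRCm38.p6, 250 bases before to 50 bases after the start, 300 in all) were at hand for 8 of the 9 genes, in 10 windows; Aldh1a3 had no entry. Of 32851 windows of this length, 32 (0.0974%) held the repeat, and 1 of them was that of Cyp26a1. Units spaced by 1 base were in 0.222% of windows and units spaced by 2 bases in 0.268%, and neither was in a window of the 9 genes. The Cyp26a1 window (chr19:37697558-37697857, plus strand) is shown because it is the only window of the 9 genes with the repeat, which is in capitals. The repeat reads on the minus strand, with AGTTCA as both units, and lies at bases -32 to -16 from the start. A 100-base stretch of the Rarb window (chr14:16575477-16575576, minus strand) is shown beside it, since Rarb encodes a retinoic acid receptor that is itself a known target. Its repeat lies at -53 to -37 on the gene's own strand and is also in capitals.
Cyp26a1: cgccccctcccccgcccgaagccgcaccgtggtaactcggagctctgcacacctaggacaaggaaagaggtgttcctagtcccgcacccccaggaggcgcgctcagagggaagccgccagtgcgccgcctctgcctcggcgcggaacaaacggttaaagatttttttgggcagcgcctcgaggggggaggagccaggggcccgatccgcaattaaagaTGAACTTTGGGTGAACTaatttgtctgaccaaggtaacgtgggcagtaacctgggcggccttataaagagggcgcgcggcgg
Rarb: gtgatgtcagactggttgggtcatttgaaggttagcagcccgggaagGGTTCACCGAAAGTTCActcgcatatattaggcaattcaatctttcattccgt
A match of letters is a description of these windows and not a measured binding site.

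Untreated HCC was first compared with healthy livers, which asks how the synthesis, transport and breakdown genes stood in the tumor-bearing liver. Rbp4, Adh1, Adh7 and Cyp26a1 fell and Aldh1a2 and Aldh1a3 rose, while Aldh1a1, Aldh1a7 and Cyp26b1 did not pass the test. Calls came from edgeR's quasi-likelihood test with Benjamini-Hochberg adjustment over all 15717 genes, and needed a fold change over 1.5 beside an adjusted p under 0.05. Thus 6 of 9 genes were called, against 40.8% of all genes tested. Over the other settings and the fits with a library left out, 4 to 6 of the 9 were called, against 4873 to 8838 of all genes. The calls of Aldh1a3 and Cyp26a1 were lost in several of these, as given below. The 2 that rose stand beside 22.7% of all genes, and the 4 that fell beside 18.1%. Aldh1a2 and Aldh1a3, the 2 that rose, had 3 to 6 counts in each healthy liver. They passed the filter on low counts only through the HCC livers, where they were higher. The median log2 fold change of the 9 genes was -1.05, and that of all genes tested was 0.01.

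The plot of levels by liver gives the values of all 9 genes, which are described by role below. Groups without overlap were common among all genes. Between untreated HCC and healthy livers, 5 of the 9 genes and 10260 of all 15717 tested did not overlap. Between miR-22-treated and untreated HCC these were 4 and 6173, and between miR-22-treated HCC and healthy livers 5 and 7670.

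**Figure D1:**
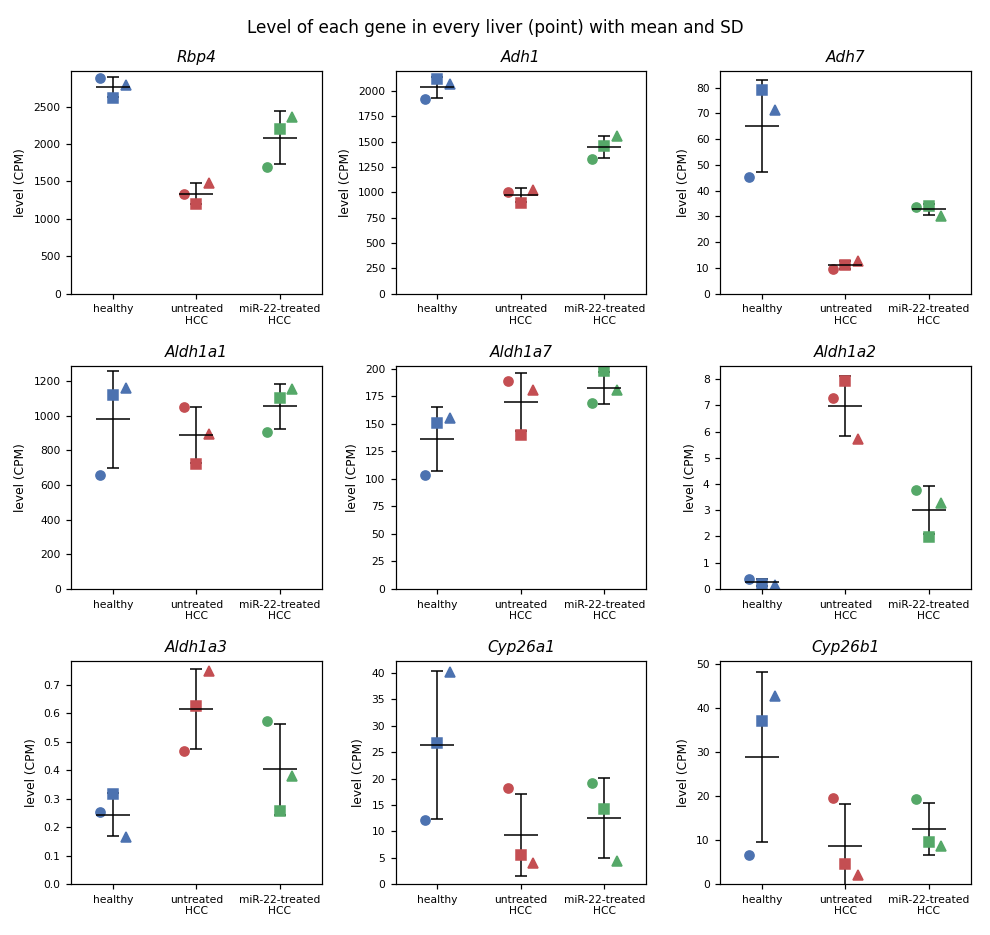
Level (CPM, TMM-scaled, linear axes from 0) of each of the 9 genes in every liver, with 1 point per liver (circle, square and triangle: first, next and last replicate of a group), a horizontal bar for the mean and whiskers for the SD (n = 3). Rbp4, Adh1, Adh7 and Aldh1a2 separated the 3 groups without overlap, whereas the Cyp26a1 and Cyp26b1 points of the groups overlapped.

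Rbp4 encodes the blood carrier of retinol and lies on chromosome 19 (GRCm39, 38105066 to 38113754, minus strand). Its level was 2877, 2617 and 2789 CPM in the healthy livers, 1330, 1195 and 1476 CPM in untreated HCC, and 1691, 2200 and 2363 CPM in miR-22-treated HCC. The 3 groups did not overlap, and every treated liver lay between the others. Rbp4 fell by 1.05 on the log2 scale (SE 0.148, adjusted p = 6.06e-05) in untreated HCC. It was 1.56-fold higher with miR-22 than in untreated HCC (log2 fold change 0.64, SE 0.147, adjusted p = 0.00789). That call is close to the fold threshold: without untreated HCC replicate 3 the log2 fold change was 0.57 and without miR-22-treated HCC replicate 4 it was 0.54, both under 1.5-fold, as it was (0.41) with library totals in place of TMM factors. The call was also lost with the replicate number as a block. Against healthy livers, the treated livers were 1.32-fold lower (adjusted p = 0.0467), which is under the fold threshold.

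Adh1 and Adh7 encode alcohol dehydrogenases that oxidize retinol among other alcohols, and lie 26.8 kb apart on chromosome 3 (GRCm39, Adh7 at 137923521 to 137939938 and Adh1 at 137966752 to 137996462, both on the plus strand). Adh1 stood at 1919, 2113 and 2070 CPM in healthy livers, 1001, 899 and 1025 CPM in untreated HCC and 1329, 1457 and 1552 CPM in miR-22-treated HCC. Its groups did not overlap. Adh1 fell by 1.06 on the log2 scale in untreated HCC (SE 0.118, adjusted p = 8.63e-06). With miR-22 it was 1.48-fold higher than in untreated HCC (SE of the log2 value 0.118, adjusted p = 0.00477), just under the threshold of 1.5, and it was called when untreated HCC replicate 2, untreated HCC replicate 4 or miR-22-treated HCC replicate 2 was left out.

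Adh7 had the largest fall of the 9 genes. Its level was 45.2, 79.1 and 71.2 CPM in healthy livers, 9.75, 11.2 and 12.8 CPM in untreated HCC, and 33.8, 34.1 and 30.2 CPM in miR-22-treated HCC. The groups again did not overlap, and all treated livers were above all untreated HCC livers and below all healthy livers. The fall in untreated HCC was 5.79-fold (log2 fold change -2.53, SE 0.184, adjusted p = 2.7e-07). With miR-22 the level was 2.90-fold higher than in untreated HCC (log2 fold change 1.54, SE 0.182, adjusted p = 0.000224). It remained 2.00-fold below healthy livers (log2 fold change -0.996, SE 0.173, adjusted p = 0.000766).

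Hepatocyte markers moved with these carriers and alcohol dehydrogenases, and their part in the changes was not tested. In untreated HCC 5 of 6 tested hepatocyte markers were called lower, with a median log2 fold change of -0.75, and 8 of 8 periportal hepatocyte markers were lower, with a median of -2.37. With miR-22, 1 of 6 hepatocyte and 8 of 8 periportal markers were higher than in untreated HCC. The periportal sum lay between 14120 and 16170 CPM (healthy), between 2541 and 4118 (untreated HCC) and between 6953 and 11390 (miR-22-treated HCC).

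Aldh1a1 and Aldh1a7, close relatives that encode cytosolic aldehyde dehydrogenases, passed the test in none of the comparisons. Aldh1a1 oxidizes retinal. They are neighbors on chromosome 19, separated by 44.3 kb (GRCm39, Aldh1a1 at 20469539 to 20622825 on the plus strand and Aldh1a7 at 20667107 to 20704932 on the minus strand). Aldh1a1 averaged 978 ± 279 CPM in healthy livers, 887 ± 163 CPM in untreated HCC and 1053 ± 130 CPM in miR-22-treated HCC. Its groups overlapped in every comparison. The interval of the log2 fold change in untreated HCC ran from -0.58 to 0.30 (95%, adjusted p = 0.584). Aldh1a7 averaged 136 ± 28.8, 170 ± 26.0 and 183 ± 14.4 CPM in the same order. Its log2 fold change was 0.32 in untreated HCC (adjusted p = 0.0994) and 0.42 in miR-22-treated HCC against healthy livers (adjusted p = 0.0501), and in the latter the groups did not overlap. With library totals in place of TMM factors, which moved the median of all genes by 0.422 and 0.187 in these comparisons, Aldh1a7 was called higher in both (0.74 and 0.61, adjusted p = 0.000613 and 0.00518). Aldh1a1 then had a log2 fold change of 0.28 in untreated HCC (adjusted p = 0.224).

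Reads of such near copies can be split between them by the authors' counting, so their likeness was measured. Their coding sequences were 91.6% identical over 1503 aligned bases, and 279 stretches of 31 bases were shared, which is 18.9% of those in the Aldh1a1 coding sequence. The other pairs tested were less alike: 67.2% for Aldh1a1 and Aldh1a2, 68.8% for Adh1 and Adh7 and 55.8% for Cyp26a1 and Cyp26b1, with no shared stretch. The share of Aldh1a7 in the summed counts of both genes lay between 11.8 and 13.6% (healthy), between 15.3 and 16.9% (untreated HCC) and between 13.6 and 15.8% (miR-22-treated HCC). Summing both genes before the fit gave a log2 fold change of -0.08 in untreated HCC (adjusted p = 0.768). The 2 genes also have starts of similar sequence. Aldh1a1 had 2 RefSeq windows, and the one more like that of Aldh1a7 was taken, so the likeness is that of the closer start. The last 150 bases of the windows compared (GRCm38.p6) run from 100 before to 50 after the start. They lie at chr19:20601868-20602017 on the plus strand (Aldh1a1) and chr19:20727507-20727656 on the minus strand (Aldh1a7). These stretches were identical at 142 bases (94.7%). They are shown because the likeness runs into the promoter, with the 8 differing bases in capitals.
Aldh1a1: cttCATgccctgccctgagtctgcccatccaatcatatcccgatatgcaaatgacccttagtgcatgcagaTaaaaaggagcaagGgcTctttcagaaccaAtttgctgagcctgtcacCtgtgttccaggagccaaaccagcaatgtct
Aldh1a7: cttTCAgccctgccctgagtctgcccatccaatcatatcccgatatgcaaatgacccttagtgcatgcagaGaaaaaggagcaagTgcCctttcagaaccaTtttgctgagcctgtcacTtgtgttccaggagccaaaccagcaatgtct

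Aldh1a2 changed most of all 9 genes. It encodes the retinal dehydrogenase that makes retinoic acid in embryonic mesoderm, and lies on chromosome 9 (GRCm39, 71122630 to 71203527, plus strand). The healthy livers held 6, 3 and 3 counts, the untreated HCC livers 155, 177 and 153, and the treated livers 66, 31 and 69. In CPM these are 0.377, 0.189 and 0.165, then 7.26, 7.93 and 5.72, then 3.77, 1.98 and 3.28. The groups did not overlap. The fitted log2 fold change in untreated HCC was 4.82 (SE 0.375, adjusted p = 4.79e-07). As the healthy livers lay near the floor of 3 counts, the size of the rise is uncertain. The ratio of summed counts, which rests on the same counts, was 28.7-fold. Its exact 95% interval of 16.3 to 55.9 covers counting error only. With miR-22, Aldh1a2 was 2.30-fold lower than in untreated HCC (log2 fold change -1.20, SE 0.264, adjusted p = 0.00661). It was still higher than in healthy livers (log2 fold change 3.62, adjusted p = 2.29e-05), with a ratio of summed counts of 12.8 (interval 7.11 to 25.2). Leaving out any library kept all 3 calls. With the replicate number as a block, the call against untreated HCC was lost (adjusted p = 0.0535).

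Markers of myofibroblasts and of ductal cells moved with Aldh1a2, and their part was not tested. Myofibroblast markers were called higher in untreated HCC in 8 of 8 cases, and their sum lay between 73.7 and 83.3 CPM (healthy), between 790 and 920 (untreated HCC) and between 472 and 671 (miR-22-treated HCC). With miR-22, 4 of 8 were lower than in untreated HCC. Of 6 ductal markers 5 were called higher in untreated HCC and 4 lower with miR-22, and their sum lay between 29.5 and 42.1 CPM (healthy), between 3340 and 6260 (untreated HCC) and between 1568 and 2714 (miR-22-treated HCC). Most of that sum was Spp1, at 3239 to 6077 CPM in untreated HCC. Sox9 stood at 66.8 to 112 CPM there against 2.08 to 4.65 in healthy livers, and Krt19 at 2.28 to 5.81 against 1.04 to 2.83. Stellate markers went the other way: 5 of 10 were lower and 1 was higher in untreated HCC, and 4 of 10 were higher with miR-22 than in untreated HCC. Their sum lay between 379 and 446 CPM (healthy), between 286 and 314 (untreated HCC) and between 305 and 379 (miR-22-treated HCC). Mesothelial markers, from cells that also express Aldh1a2, summed to 8.63 to 12.2, 9.18 to 15.9 and 11.5 to 17.5 CPM in the 3 groups. Every marker of these 4 lists was above 0 in at least 1 library.

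Aldh1a3, another retinal dehydrogenase, had the fewest counts of the 9. It had 4, 5 and 3 counts in healthy livers, 10, 14 and 20 in untreated HCC and 10, 4 and 8 in miR-22-treated HCC. No untreated HCC liver overlapped a healthy one, but the treated livers overlapped both groups. The rise in untreated HCC (log2 fold change 1.33, SE 0.514, adjusted p = 0.0418) rests on 44 against 12 counts, a ratio of 2.60 with an exact interval of 1.35 to 5.41. The call was lost when any 1 library was left out (adjusted p 0.0513 to 0.158) and with DESeq2 (0.0816). With miR-22 the log2 fold change against untreated HCC was -0.60 (95% interval -1.62 to 0.41, adjusted p = 0.388).

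Cyp26a1 and Cyp26b1, which clear retinoic acid, varied widely among livers of the same group. Cyp26a1 (chromosome 19, 37686241 to 37689984, GRCm39, plus strand) stood at 12.1, 26.7 and 40.1 CPM in healthy livers 1, 2 and 3, at 18.2, 5.42 and 4.07 CPM in untreated HCC livers 2, 3 and 4, and at 19.2, 14.2 and 4.33 CPM in miR-22-treated HCC livers 2, 3 and 4. Cyp26b1 (chromosome 6, 84548396 to 84570890, GRCm39, minus strand) stood at 6.73, 37.0 and 42.9 CPM, then 19.5, 4.52 and 2.05 CPM, then 19.3, 9.57 and 8.61 CPM in the same order of livers. Healthy replicate 1 was low and replicate 2 of either HCC group was high, so the groups overlapped for both genes. The highest liver was 3.31, 4.47 and 4.43 times the lowest for Cyp26a1 in the 3 groups, and 6.38, 9.49 and 2.25 times for Cyp26b1. Of 10602 genes with a mean of at least 5 CPM, 0.736%, 0.283% and 0.292% had a wider range than Cyp26a1, and 0.34%, 0.123% and 1.77% a wider range than Cyp26b1.

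Despite that spread Cyp26a1 was called lower in untreated HCC (log2 fold change -1.53, SE 0.586, adjusted p = 0.0408). With single libraries left out the log2 fold change ran from -2.48 (without untreated HCC replicate 2) to -1.10 (without healthy replicate 3). The call held without healthy replicate 1 and without untreated HCC replicate 2, and was lost without healthy replicate 2 (adjusted p = 0.0831), healthy replicate 3 (0.176), untreated HCC replicate 3 (0.139) or untreated HCC replicate 4 (0.127). Over the 9 fits with a library left out, adjusted p ran from 0.00432 to 0.176, DESeq2 gave 0.0915 and library totals in place of TMM factors gave 0.11. Cyp26b1 had a log2 fold change of -1.76 (SE 0.712, adjusted p = 0.0515), and was called lower without healthy replicate 1 (log2 fold change -2.24, adjusted p = 0.0123), untreated HCC replicate 2 (-3.16, adjusted p = 0.00296) or miR-22-treated HCC replicate 4 (-1.76, adjusted p = 0.0497). With miR-22 against untreated HCC, neither was called: the intervals of the log2 fold change were -0.85 to 1.74 for Cyp26a1 and -1.03 to 2.11 for Cyp26b1.

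The livers kept the same order for both genes in all 3 groups, as the plot of liver order shows. Of 15716 other genes tested, 68 (0.433%) had the order of Cyp26a1 in all 3 groups, a measure chosen after the values were seen. With 3 livers per group the number of possible orders is limited, so unrelated genes can share one, and a link was not tested. Among these 68 were Cyp26b1, Lrat and Rarb, sought among the other members and the 43 other retinoid pathway genes that passed the filter. The last pair stood in the list of known retinoic acid targets. Lrat, which esterifies retinol for storage, stood at 29.9, 48.1 and 48.4 CPM in healthy livers, 23.7, 11.5 and 9.82 CPM in untreated HCC and 40.5, 34.2 and 21.6 CPM in miR-22-treated HCC. Rarb stood at 5.47, 6.87 and 6.98 CPM, then 6.70, 5.91 and 5.04 CPM, then 8.92, 6.31 and 3.47 CPM. Healthy replicates 2 and 3 differed little for Lrat and Rarb, so that part of their order is uncertain. Rarb did not pass the test between any groups (adjusted p = 0.705, 0.871 and 0.895).

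**Figure D2:**
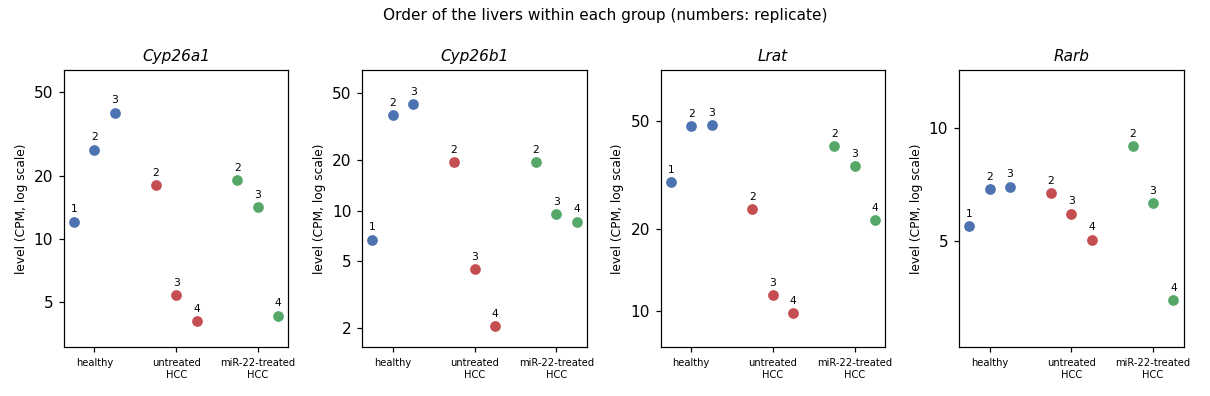
Level (CPM, log axis) of Cyp26a1, Cyp26b1, Lrat and Rarb in every liver, 1 point per liver with its replicate number above it, grouped as healthy, untreated HCC and miR-22-treated HCC. In each panel healthy replicate 1 was the lowest of its group and replicate 2 the highest of either HCC group.

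miR-22-treated HCC was next set against untreated HCC and healthy livers for all 9 genes together. In the first comparison Rbp4 and Adh7 were higher and Aldh1a2 lower, so 3 of 9 were called, against 13.8% of all genes tested. The 2 higher genes stand beside 8.32% of all genes and the 1 lower gene beside 5.47%. Their median log2 fold change was 0.45, and that of all genes was 0.00. Against healthy livers, Aldh1a2 remained higher and Adh7 lower, so 2 of 9 were called, against 24.0% of all genes (16.9% higher and 7.05% lower). The median there was -0.41 against 0.02. Over the other settings and the fits with a library left out, 1 to 4 of the 9 were called against untreated HCC and 1 to 5 against healthy livers. All genes called ran from 958 to 3777 and from 2678 to 5732. As the comparisons share libraries, the values of each are given side by side and are not independent. Without miR-22-treated HCC replicate 2, the library with acinar transcripts, Rbp4 (log2 fold change 0.77), Adh7 (1.51) and Aldh1a2 (-1.39) were still called against untreated HCC, and Adh1 (0.62) as well. In that fit 5, 4 and 2 of the 9 genes were called in the 3 comparisons, against 40.6%, 11.7% and 23.5% of all genes tested in it, and 27, 12 and 13 of the other pathway genes described next.

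**Figure D3:**
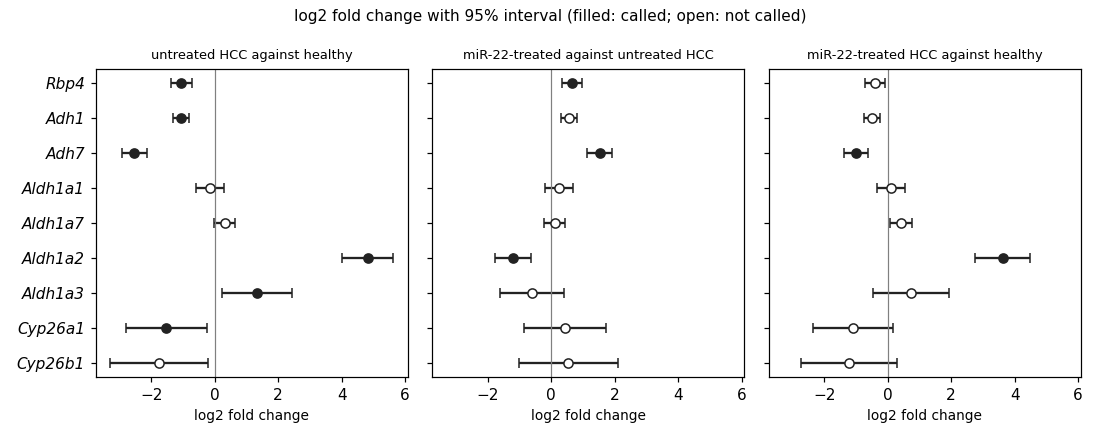
log2 fold change (horizontal axis) of each of the 9 genes in the 3 comparisons, with 95% intervals from edgeR's quasi-likelihood fit. Filled points passed the threshold (fold change over 1.5, adjusted p under 0.05) and open points did not: Aldh1a2 lies at 4.82, -1.20 and 3.62, and Adh7 at -2.53, 1.54 and -0.996.

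Between genes, levels were compared per kb of the canonical GENCODE M39 transcript. In healthy livers the order ran from Rbp4 (2947 ± 141 CPM per kb) and Adh1 (1360 ± 68.1) through Aldh1a1 (158 ± 45.0), Aldh1a7 (25.8 ± 5.46), Adh7 (15.4 ± 4.20), Cyp26a1 (14.7 ± 7.79) and Cyp26b1 (5.38 ± 3.62) to Aldh1a2 (0.0901 ± 0.043) and Aldh1a3 (0.0605 ± 0.019). Adh7, Cyp26a1 and Cyp26b1 overlapped their neighbors in that order, as did Aldh1a2 and Aldh1a3. In untreated HCC Cyp26a1 (5.13 CPM per kb) stood above Adh7 (2.66) and Aldh1a2 (2.58) above Cyp26b1 (1.62), with overlap from Cyp26a1 down to Cyp26b1. With the median length of protein-coding transcripts in place of the canonical one, Aldh1a3 (0.161 CPM per kb) stood above Aldh1a2 (0.0905) in healthy livers. The annotation is newer than the deposited table, whose gene versions are lower, so lengths used for counting can differ.

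**Figure D4:**
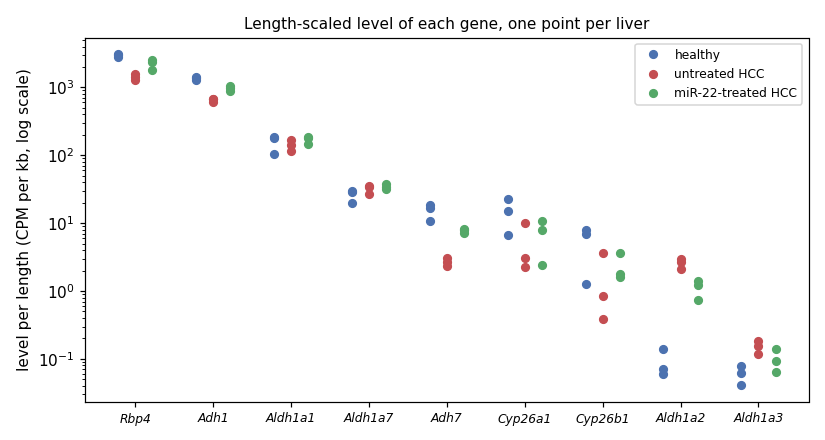
Level per length (CPM per kb of canonical transcript, log axis) of the 9 genes, 1 point per liver, colored by group and ordered by the healthy mean. Levels spanned from 2947 CPM per kb (Rbp4) to 0.0605 (Aldh1a3) in healthy livers, and only Aldh1a2 moved by more than 10-fold between groups.

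Genes whose pattern over the 9 livers was most like that of each member were taken by Pearson's r of log2 CPM, as a description over libraries that share 3 groups. For Rbp4 they were the mitochondrial ATP synthase genes Atp5d, Atp5h and Atp5o (r = 0.992, 0.992 and 0.991). For Adh1 they were Ces1d (0.996), Gsta3 and Marveld1, and for Adh7 Serpina6 (0.992), Dctpp1 and Mup9. Aldh1a2 was most like Src (0.999), Pdgfc and Sirpa, and the genes nearest to Aldh1a3 included Plxnd1 and Gmip. Aldh1a1 was most like Drg1 (0.918), Ugp2 and Amn1, and the genes nearest to Aldh1a7 included Ugdh (0.945) and Vps29. Cyp26a1 and Cyp26b1 shared the same nearest gene, Dpy19l4 (0.959 and 0.927), and Cyp26a1 was among the 3 nearest of Cyp26b1 (0.901).

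The rest of the retinoid pathway was read from 60 listed genes, all in the table, of which 43 passed the filter. In untreated HCC 8 were higher and 19 lower, and 16 were not called, with a median log2 fold change of -0.57. Of all genes tested, 22.7% were higher and 18.1% lower there. With miR-22 against untreated HCC, 11 were higher, 3 lower and 29 not called (median 0.24), beside 8.32% and 5.47% of all genes. Against healthy livers, 6 were higher and 7 lower in miR-22-treated HCC, beside 16.9% and 7.05% of all genes. The counts by role below stand beside the same shares. The plot of pathway genes by role gives the values by gene.

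Of the 15 tested genes that oxidize retinol or reduce retinal, 9 fell and 1 rose in untreated HCC, and 5 rose and 1 fell with miR-22. Rdh16f2 fell from 344 to 36.2 CPM on average (log2 fold change -3.24, SE 0.321, adjusted p = 3.19e-06) and was 108 CPM with miR-22 (1.58 against untreated HCC, adjusted p = 0.0033). Adh5 fell by 1.22 on the log2 scale and Rdh7, at 1297 CPM in healthy livers, by 1.42. Rdh10, the main retinol dehydrogenase of embryos, fell by 0.86 (adjusted p = 0.000338), and Dhrs3, which reduces retinal back to retinol, by 0.85 (adjusted p = 4.66e-06). Adh4 and Rdh16 also fell, with log2 fold changes of -1.02 and -0.68, the latter -0.56 and under 1.5-fold without untreated HCC replicate 3. Dhrs9 went the other way, with a log2 fold change of 3.73 in untreated HCC and -1.46 with miR-22, the latter not called without untreated HCC replicate 2 (-1.16, adjusted p = 0.0646). Its mean was 0.218 CPM in healthy livers, 3.00 in untreated HCC and 1.10 in miR-22-treated HCC. As the healthy livers held 2, 4 and 5 counts, near the floor, the size of its rise is uncertain. Dhrs9 too passed the filter only through the HCC livers.

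Among other oxidases of retinal, Aldh8a1 (log2 fold change -1.62) and Aox3 (-0.99) fell and Aox1 rose (1.07), and with miR-22 Aldh8a1 (0.92) and Aox3 (0.93) were higher. Of 11 retinoid-binding and transport genes 4 were tested, since Crabp1 and Stra6 among others were at or near 0 counts. Ttr, which carries RBP4 in blood, fell (-0.80) and Fabp5, a fatty acid carrier that can also bind retinoic acid, rose (2.00). Ttr is itself on the hepatocyte marker list, whose sum moved the same way, and the part of that list was not tested. In ester storage and carotenoid cleavage, Lrat was 2.82-fold lower in untreated HCC (adjusted p = 0.00134) and was 2.15-fold higher with miR-22 than in untreated HCC (adjusted p = 0.0239). In the latter comparison the groups overlapped, and the call was lost with DESeq2 (adjusted p = 0.0513) and without untreated HCC replicate 3 (0.106), untreated HCC replicate 4 (0.0751), miR-22-treated HCC replicate 2 (0.0902) or miR-22-treated HCC replicate 3 (0.0736). Lrat is itself on the stellate marker list, whose sum and calls moved the same way, and the part of that list was not tested. Bco2 (-1.92) and Lipe (-1.54) fell, and Lpl (2.80) and Bco1 (0.75) rose. Cyp2c39, reported to hydroxylate retinoic acid, fell from 1084 to 323 CPM (-1.75) and was 605 CPM with miR-22.

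Of 6 receptors Rxra (log2 fold change -0.91) and Rxrg (-0.73) fell and Rarg rose (0.72) in untreated HCC, and Rarg alone was called with miR-22 (-0.66, adjusted p = 0.0277). Without untreated HCC replicate 3 the values of Rarg were 0.58 and -0.52, under 1.5-fold in both comparisons, and the latter then had an adjusted p of 0.127. The rise of Rarg in untreated HCC was also under 1.5-fold without healthy replicate 1 (0.57), and its fall with miR-22 was lost without miR-22-treated HCC replicate 2 or 3 (adjusted p = 0.0937 and 0.109). Rxra was 1.49-fold higher with miR-22 (log2 fold change 0.57, adjusted p = 0.00496), just under the threshold, and was called without untreated HCC replicate 4 (0.70) or miR-22-treated HCC replicate 4 (0.63). Rara had log2 fold changes of 0.03 and -0.49 (adjusted p = 0.893 and 0.0527). Of 12 known retinoic acid targets 8 were tested, of which 1 rose (Tgm2, 2.09) and 3 fell (Lrat, Dhrs3 and Rarres2), and 2 were called higher with miR-22 (Lrat, whose call depends on single libraries as given above, and Rarres1, with 0.70). Rarres1 was under 1.5-fold without untreated HCC replicate 3 (0.57) or miR-22-treated HCC replicate 3 (0.55), as was Rarres2 in untreated HCC without untreated HCC replicate 3 (-0.55). The pericentral hepatocyte markers, whose zone also expresses Cyp2c genes, were lower in 7 of 9 cases and summed to between 9515 and 9968 CPM (healthy), between 1556 and 2903 (untreated HCC) and between 3805 and 5084 (miR-22-treated HCC). Their part in these changes was not tested.

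**Figure D5:**
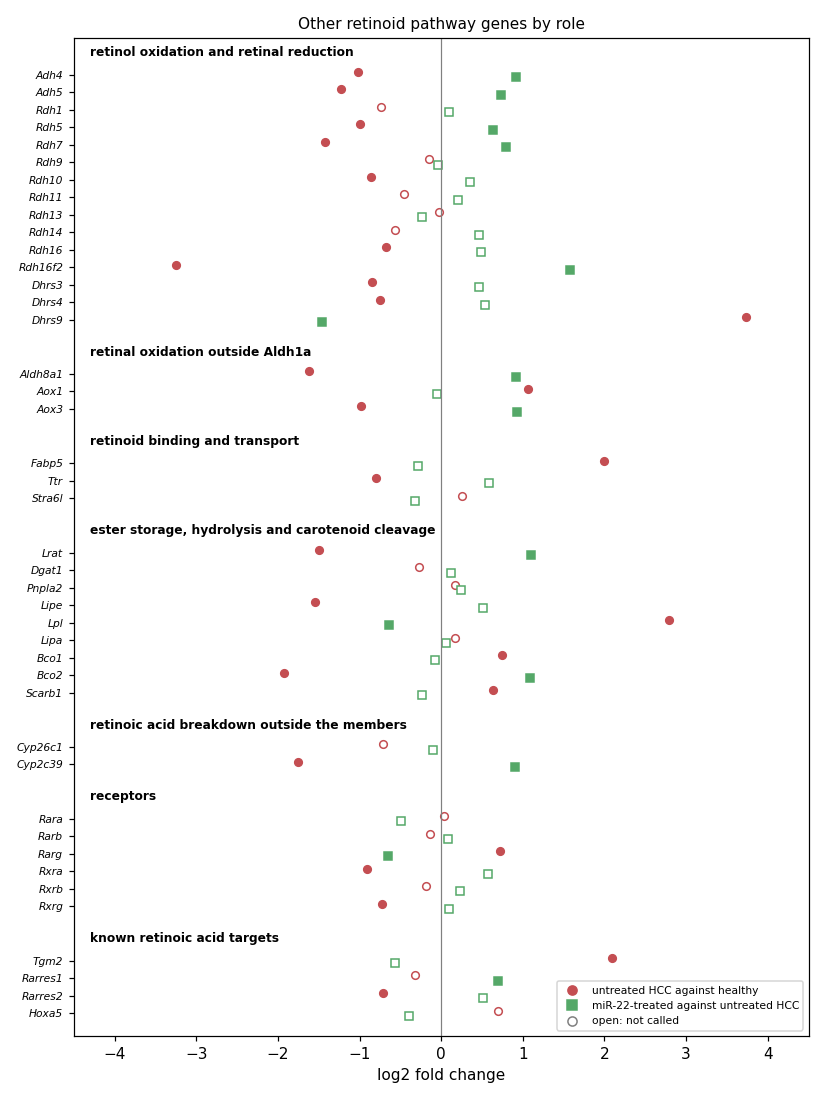
log2 fold change (horizontal axis) of tested pathway genes, grouped by role, in untreated HCC against healthy livers (circles) and in miR-22-treated against untreated HCC (squares). Filled marks were called: 27 in the former comparison and 14 in the latter, from -3.24 (Rdh16f2) to 3.73 (Dhrs9, near the floor of counts in healthy livers) in the former.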

How the data were processed

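The authors ran Salmon on GRCm39, imported its estimates by gene through tximport and deposited whole, unnormalized counts. The labels also list FastQC 0.11.7 and DESeq2 1.18. A second table, which holds the authors' normalized values of the same libraries, was not used here. The test was edgeR 4.0.16 in R 4.3.3 (TMM, filterByExpr, two-sided quasi-likelihood test, 9 libraries in 3 groups, no covariates). Depth was 16664659 to 23908392 counts per library, and intervals on ratios of counts cover counting error only. Calls needed a fold change over 1.5 and a p under 0.05 after Benjamini-Hochberg adjustment. Alternatives were DESeq2 1.42.0, limma 3.58.1, other normalizations, filters and fits, and each library left out. The edgeR, DESeq2 and limma steps were tested on simulated data. Positions are from GENCODE M39 on GRCm39 and promoter sequences from RefSeq on GRCm38.p6. Members, role lists, marker lists and the naming rule (all members, up to 3 called genes per list and comparison, and a set of genes always named) were chosen with earlier results of these data known. A few genes that the rule picks are not reported here.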

Additional observations from a re-analysis of the deposited data

How the results depend on the processing

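The falls of Rbp4, Adh1 and Adh7 and the rise of Aldh1a2 in untreated HCC were called under every alternative that could test them, and Adh7 was called in all 3 comparisons. Without a filter on low counts, the SE of Cyp26b1 was 0.148 in place of 0.712 and its adjusted p 4.79e-31 (range over alternatives 4.79e-31 to 0.177), and the cause was not tested. Cyp26a1 had a similar range over alternatives in untreated HCC (2.03e-23 to 0.176). For miR-22-treated HCC against healthy livers the ranges were 6.55e-12 to 0.478 (Cyp26a1) and 3.01e-15 to 0.468 (Cyp26b1). Scaling by library totals alone, chosen after seeing the data, moved the median of all genes by 0.422, -0.236 and 0.187 in the 3 comparisons, and split the calls in untreated HCC into 5986 higher and 1492 lower in place of 3575 and 2842 (pathway genes 10 and 9 in place of 8 and 19). With miR-22 against untreated HCC that split was 835 and 2164 in place of 1308 and 859 (pathway genes 7 and 5 in place of 11 and 3), and against healthy livers 3408 and 593 in place of 2664 and 1108. The scaling reversed Aldh1a1 (0.28), Rarb (0.29) and Rarres1 (0.10) in untreated HCC, Aldh1a7 (-0.13), Rarb (-0.17) and Rxrg (-0.14) with miR-22 against untreated HCC, and Rarb (0.13), Adh4 (0.071) and Aox3 (0.12) against healthy livers. limma-trend gave -0.0090 for Rarb with miR-22.

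Same-numbered livers of the HCC groups did not deviate together over the tested genes (r = -0.112, -0.104 and -0.22). With 3 livers per group, such correlations cannot decide whether livers of the same number were handled together. With the replicate block, 1 member (Adh7), 2 pathway genes and 958 genes (676 higher, 282 lower) were called for miR-22 against untreated HCC, and 5 members against healthy livers on 2 pairs. That block reversed Rarb (-0.0045) with miR-22, and Aldh1a1 (-0.20), Rarb (0.12) and Rarg (-0.30) against healthy livers. With no fold threshold, 23 pathway genes and 3777 genes were called with miR-22, and 4 members and 5732 genes against healthy livers. Against healthy livers, 4 members were called with no filter and 1 with at least 10 counts in every library. All genes called in that comparison ranged from 2678 to 5732 over the settings other than leaving out a library. These counts of members alone therefore say nothing particular about the members.

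With libraries left out, 9 to 20 pathway genes (9 without untreated HCC replicate 3) and 1433 to 2660 genes (1433 without miR-22-treated HCC replicate 3) were called with miR-22. Values that changed sign ranged as follows. In untreated HCC, Rara ran from -0.14 to 0.19. With miR-22, Cyp26a1 ran from -0.0093 to 1.40 (lowest without miR-22-treated HCC replicate 2), Aldh1a7 from -0.019 to 0.18, Rxrg from -0.040 to 0.18, Rarb from -0.28 to 0.38 and Aox1 from -0.13 to 0.018. Against healthy livers, Aldh1a1 ran from -0.13 to 0.23, Rarg from -0.15 to 0.18, Aox3 from -0.23 to 0.12, Rarb from -0.43 to 0.24 and Adh4 from -0.22 to 0.066. Depth limits Aldh1a3, at 3 to 20 counts per library, and Aldh1a2 and Dhrs9 in healthy livers.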
